A study of Homo sapiens with 4 samples.

Results

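The genes described here are the metalloproteinases and inhibitors whose symbol on the array is MMP, ADAM, ADAMTS or TIMP followed by a number and nothing more, on gene spots and not on control spots. They numbered 67 of the 43310 gene names on the array, with 22 MMP, 22 ADAM, 19 ADAMTS and 4 TIMP genes, and were read by 99 probes of 60 bases. All 67 symbols matched RefSeq, which lists 65 as protein coding and 2, ADAM5 and ADAM6, as pseudogenes. Total RNA was taken from HCT116, a human colorectal cancer line, and A549, a human lung cancer line. Each line was transfected with miR-891b or with NC1, a negative control RNA, by means of the lipid reagent DharmaFECT 1, and each of the 4 groups was measured on 1 array. The time after transfection is not given in the sources used here. The series concerns the serine synthesis enzyme PSAT1 and how cancer cells release extracellular vesicles.

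Matrix metalloproteinases (MMPs) and the ADAM and ADAMTS proteins belong to the metzincins, enzymes that hold a zinc ion in the active site. MMPs cut collagens and other proteins of the matrix, most ADAMs with an active site cut membrane proteins free from the cell surface, and ADAMTS enzymes are secreted and cut proteoglycans, procollagens and clotting proteins. TIMPs are the tissue inhibitors that block MMPs and, for TIMP3 above all, several ADAM and ADAMTS enzymes. Many of these genes are transcribed mainly in fibroblasts, leukocytes, brain or testis, and carcinoma cells carry only part of the family.

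Mature miR-891b is shown because it is the RNA that was transfected, with bases 2 to 8, the seed, in capitals. The DNA letters that pair with this seed, AAGTTGC on the probe strand, were found in 229 of 58201 gene probes (0.3935%) and in 2 of the 99 probes for these genes, 1 for MMP25 and 1 for ADAM20. Stretches of 29 bases of these probes follow with the match in capitals.
hsa-miR-891b: uGCAACUUaccugagucauuga
MMP25: ggccacttcctAAGTTGCtgtccagcctc
ADAM20: atgtgatgggaAAGTTGCgttacctgtca
The miRNA sequence is RefSeq's and the other 2 are the array's. The whole MMP25 probe lies at chr16:3110418-3110477 on the plus strand of hg19, and the whole ADAM20 probe at chr14:70989374-70989433 on the minus strand. ADAM20, an ADAM of the testis, was above background on no array. A match in a probe is a description of letters and not a measured target site.

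All levels below are log2 of the processed signal of a probe minus the 75th percentile of its array, so 0 is the signal at that percentile. Levels are compared between arrays for the same probe and never between probes. Of several probes for a gene, the brightest on average represents it. It is called measured in a comparison if this probe carried the scanner software's mark for well above background on both arrays. Where only 1 of the arrays had the mark, the difference is given as a bound ("at least"), the brighter value against the higher of the dim array's lowest marked signal and the dim probe's own. Fitted differences of such genes are no bounds. The normexp alternative (background correction with an offset of 50, then quantile normalization) adds a constant to every signal before the log and so draws dim values together, and its differences are given beside the results that it moves. It has no bounds, and its values are plain log2 differences. A change was called at 2-fold or more, with no test between single arrays, and a lower level may mean fewer cells with the RNA or less RNA per cell, which cannot be told apart.

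Between 44.7% and 50.3% of gene probes were well above background on each array, and no gene probe was saturated. The median SD over repeated spots of a probe was 0.06 in HCT116 and 0.07 in A549 (log2, 276 and 287 probes), which covers the spread within an array only. Among genes with a pair of measured probes, the gap between the probes' changes had a median of 0.19 in HCT116 and 0.24 in A549. Areas of stray signal, where at least 10% of the surrounding spots dim elsewhere were bright, held 10.5% of gene spots on the HCT116 miR-891b array and 2.20% or less on the others. The HCT116 arrays shared a slide and the A549 arrays another, so line and slide cannot be told apart. The line markers followed the labels: the summed level of 5 A549 markers was 6.0 and 5.83 in HCT116 and 11.62 and 11.10 in A549, and that of 4 HCT116 markers 7.49 and 7.15 against 2.93 and 3.76. Of 7 fibroblast markers, 2 were on in HCT116 and 4 in A549, with summed levels of 1.40, 1.13, 2.09 and 3.40. COL1A1 and PDGFRB were on at all arrays, and COL1A2, COL3A1 and DCN on none. LUM and THY1 were on in A549 only, with NC1 and miR-891b at 1.03 and 3.17 for LUM and -1.47 and -2.51 for THY1. Of the leukocyte markers 2 were on, and of the endothelial markers 1, on every array. The part of such markers in the differences between the lines was not tested.

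Of the 67 genes, 20 were well above background on all 4 arrays (29.85%, against 41.71% of all gene names). A further 23 were on 1 to 3 arrays and 24 on none. On at least 2 arrays were 35 of the 67 genes and 22712 of all 43310 gene names. The share of all gene names on no array was not counted, so the counts on none and by class are only a description. The number of the 67 genes on each array was 30 for HCT116 with NC1, 30 for HCT116 with miR-891b, 29 for A549 with NC1 and 33 for A549 with miR-891b. The ADAM sheddases of somatic tissues were mostly on, with 7 of 9 on all 4 arrays and none off all of them. The ADAMs of the germline and their like gave the reverse picture, with none of 10 on all arrays and 6 on none. Of the ADAMTS enzymes that cut aggrecan and versican, the proteoglycanases, 5 of 7 were on no array. Of the collagenases MMP1, MMP8 and MMP13, which cut fibrillar collagen, MMP1 alone rose above background, on 1 array. The 24 genes on no array were MMP2, MMP3, MMP8, MMP10, MMP13, MMP16, MMP20, MMP21 and MMP26, then ADAM2, ADAM5, ADAM6, ADAM18, ADAM20 and ADAM29, and ADAMTS1, ADAMTS2, ADAMTS3, ADAMTS4, ADAMTS5, ADAMTS12, ADAMTS15, ADAMTS18 and ADAMTS20. For these the arrays show only that the signal was not well above background.

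**Figure D1:**
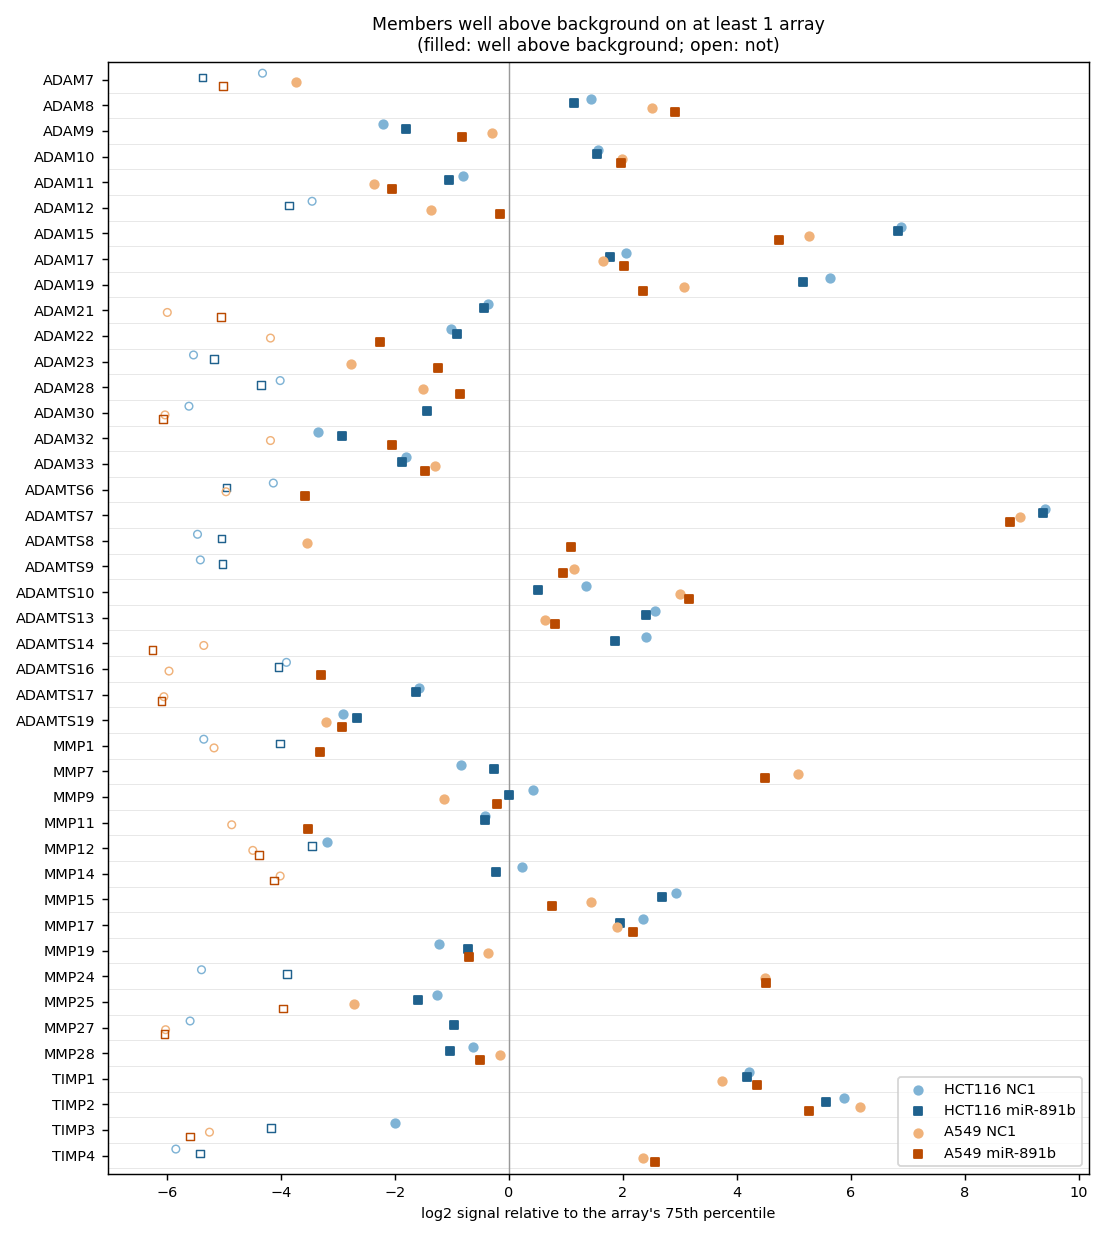
Log2 level of each gene's chosen probe (array's 75th percentile at 0) on the 4 arrays, for the genes well above background on at least 1 array, with HCT116 in blue and A549 in orange and NC1 as circles and miR-891b as squares; filled marks were well above background and open marks were not. Marks of the same gene may be compared with each other: TIMP4 and MMP24 stand apart between the lines, while those of TIMP1 and TIMP2 mingle.

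The inhibitors divided into a pair on in both lines and a pair that were not. TIMP1, a broad secreted MMP inhibitor, stood at 4.21 and 4.18 in HCT116 and 3.74 and 4.36 in A549 with NC1 and miR-891b. The HCT116 values lay inside the range of the A549 values. TIMP2, which blocks MMPs and also takes part in the activation of MMP2 by MMP14, stood at 5.88, 5.56, 6.17 and 5.26 in the same order. Its A549 values, the highest and the lowest of the 4, enclosed those of HCT116. The additive limma model, in which the cell line and the transfected RNA are terms and p-values are Benjamini-Hochberg adjusted over 22712 genes, gave a line difference (A549 minus HCT116) of -0.15 (SE 0.28, adjusted p = 0.713) for TIMP1 and -0.01 (SE 0.27, adjusted p = 0.987) for TIMP2.

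TIMP4 was on in A549 only, at 2.36 and 2.56, against -5.84 and -5.42 in HCT116, where its probe (chr3:12194728-12194787, hg19, minus strand) was not well above background. It was at least 60-fold higher in A549 with NC1 and at least 51.6-fold higher with miR-891b. With normexp the differences for TIMP4 were 2.95 and 3.18. TIMP3, the inhibitor that binds to the matrix, was well above background only in HCT116 with NC1, at -1.99, and read -4.17, -5.25 and -5.59 on the other 3 arrays. With NC1, HCT116 was thus at least 3.91-fold above A549, and with normexp the TIMP3 difference was -0.30.

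Among the secreted MMPs, MMP7 (matrilysin, made by epithelial cells) differed most between the lines of the genes on all 4 arrays. Its levels were -0.83 and -0.26 in HCT116 and 5.08 and 4.50 in A549. The lines did not overlap, and the difference was 5.33 (SE 0.36, limma, adjusted p = 0.00211), or 4.34 with normexp. MMP11 (stromelysin 3) went the other way. It stood at -0.42 and -0.41 in HCT116 and at -4.86, not above background, and -3.53 in A549, so that A549 was lower by 3.12 with miR-891b and at least 11.6-fold lower with NC1. With normexp these MMP11 differences were -0.76 and -0.85, under 2-fold. MMP12, the macrophage elastase, was just above background at -3.19 in HCT116 with NC1 and on no other array. MMP9, the gelatinase of type IV collagen, read 0.43 and 0.00 in HCT116 and -1.14 and -0.21 in A549. Its line difference of -0.89 did not pass (SE 0.41, limma, adjusted p = 0.167).

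The membrane-type MMPs, which stay anchored on the cell surface, were partly shared between the lines: MMP15 and MMP17 were on at all arrays, while MMP24 and MMP14 were each on in 1 line. MMP24 (chr20:33864708-33864767, hg19, plus strand) read 4.50 and 4.52 in A549 and -5.39 and -3.89, not above background, in HCT116. This made it at least 265-fold higher in A549 with NC1 and at least 201-fold higher with miR-891b. With normexp the MMP24 differences were 4.57 and 4.66. MMP14, which activates MMP2 and cuts collagen at the cell surface, read 0.23 and -0.22 in HCT116 and -4.01 and -4.12, not above background, in A549. HCT116 was at least 18.2-fold higher with NC1 and at least 13.1-fold with miR-891b, where the HCT116 probe lay in an area of stray signal. With normexp the MMP14 differences were -1.17 and -0.98. MMP2, the enzyme that MMP14 and TIMP2 act on, was on no array. MMP15 was lower in A549, at 1.44 and 0.75 against 2.93 and 2.68 in HCT116, by 1.71 (SE 0.25, limma, adjusted p = 0.014). MMP17, which is held by a lipid anchor, read 2.35, 1.95, 1.90 and 2.18 and did not pass (limma, adjusted p = 0.788).

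The sheddases ADAM10 and ADAM17 were on in both lines. ADAM10, which cuts Notch receptors and many adhesion proteins, read 1.57 and 1.54 in HCT116 and 1.98 and 1.97 in A549. The A549 values were the higher ones for both of its probes, but the line difference of 0.42 did not pass (SE 0.23, limma, adjusted p = 0.227). ADAM17, which releases TNF and ligands of the EGF receptor, read 2.06 and 1.78 in HCT116 and 1.65 and 2.02 in A549. Its groups overlapped and the difference was -0.08 (SE 0.28, limma, adjusted p = 0.842).

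Other somatic ADAMs differed. ADAM19, a sheddase of neuregulins, was lower in A549, at 3.07 and 2.35 against 5.63 and 5.17 in HCT116, by 2.69 (SE 0.24, limma, adjusted p = 0.00388). Its second probe was on in HCT116 only. ADAM15, at 6.88 and 6.82 in HCT116 and 5.26 and 4.74 in A549, was also lower there, by 1.85 (SE 0.26, limma, adjusted p = 0.0117). In the other direction ADAM12, a sheddase of tumours and placenta, read -1.37 and -0.15 in A549 and was not above background in HCT116. It was at least 4.25-fold higher in A549 with NC1, and another ADAM12 probe, at chr10:127700996-127701055 (hg19), gave at least 14-fold. With normexp the chosen ADAM12 probe differed by 1.39. ADAM28 read -1.50 and -0.85 in A549 and was at least 4.13-fold above HCT116 with NC1, where it too was not above background, and by 0.37 with normexp. ADAM8 (by 1.42) and ADAM9 (by 1.45) were higher in A549 with adjusted p = 0.0294 and 0.037 in limma. The SEs were 0.29 and 0.32. With normexp ADAM9 differed by 0.44 and did not pass (limma, adjusted p = 0.0951). In HCT116 with miR-891b the ADAM8 probe lay in a stray area, and without such probes ADAM8, by its other probe, differed by 0.25 and did not pass (limma, adjusted p = 0.519).

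ADAM11, ADAM22 and ADAM23 are ADAMs of the brain with no active protease site. ADAM23 was on in A549 only, at -2.76 and -1.24, and at least 1.72-fold above HCT116 with NC1 (a difference of 0.21 with normexp). ADAM22 was on in HCT116, at -1.01 and -0.90, and on the A549 miR-891b array alone of that line. HCT116 was at least 7.72-fold higher with NC1, and ADAM22 differed by -0.52 with normexp. ADAM21, a gene of the testis, was well above background in HCT116 at -0.37 and -0.44 and not in A549, a bound of 12-fold with NC1. With normexp ADAM21 differed by -1.01.

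The ADAMTS genes held the other strong contrasts. ADAMTS14, which trims the amino end of procollagen, read 2.40 and 1.87 in HCT116 and -5.35 and -6.25, not above background, in A549. It was at least 81.7-fold higher in HCT116 with NC1 and at least 55.9-fold with miR-891b. With normexp the ADAMTS14 differences (A549 minus HCT116) were -2.91 and -2.55. ADAMTS9, a versican-cutting enzyme of vessels and cilia, was its mirror image, at 1.15 and 0.95 in A549 and -5.41 and -5.02, not above background, in HCT116. A549 was at least 26-fold higher with NC1 and at least 17-fold with miR-891b. With normexp the ADAMTS9 differences were 1.71 and 1.59. ADAMTS17 was on in HCT116 only, at -1.58 and -1.62, by at least 5.19-fold with NC1, and differed by -0.51 with normexp. ADAMTS10, which binds fibrillin, was higher in A549 by 2.16 and ADAMTS13, which cuts von Willebrand factor, was lower there by 1.76. The SEs were 0.34 and 0.24 and the limma adjusted p-values 0.016 and 0.0117. In HCT116 with miR-891b both ADAMTS13 probes lay in stray areas, so the gene was not tested without such probes. The second ADAMTS13 probe was on no array. ADAMTS7, which cuts the cartilage protein COMP, was on at 9.40, 9.37, 8.96 and 8.80 and did not pass (limma, adjusted p = 0.171). That is the brightest of 4 probes. Another, at 0.47, 0.43, 0.66 and 0.53, read higher in A549, by 0.19 and 0.10, where the chosen probe differed by -0.44 and -0.57. The remaining ADAMTS7 probes were on no array.

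**Figure D2:**
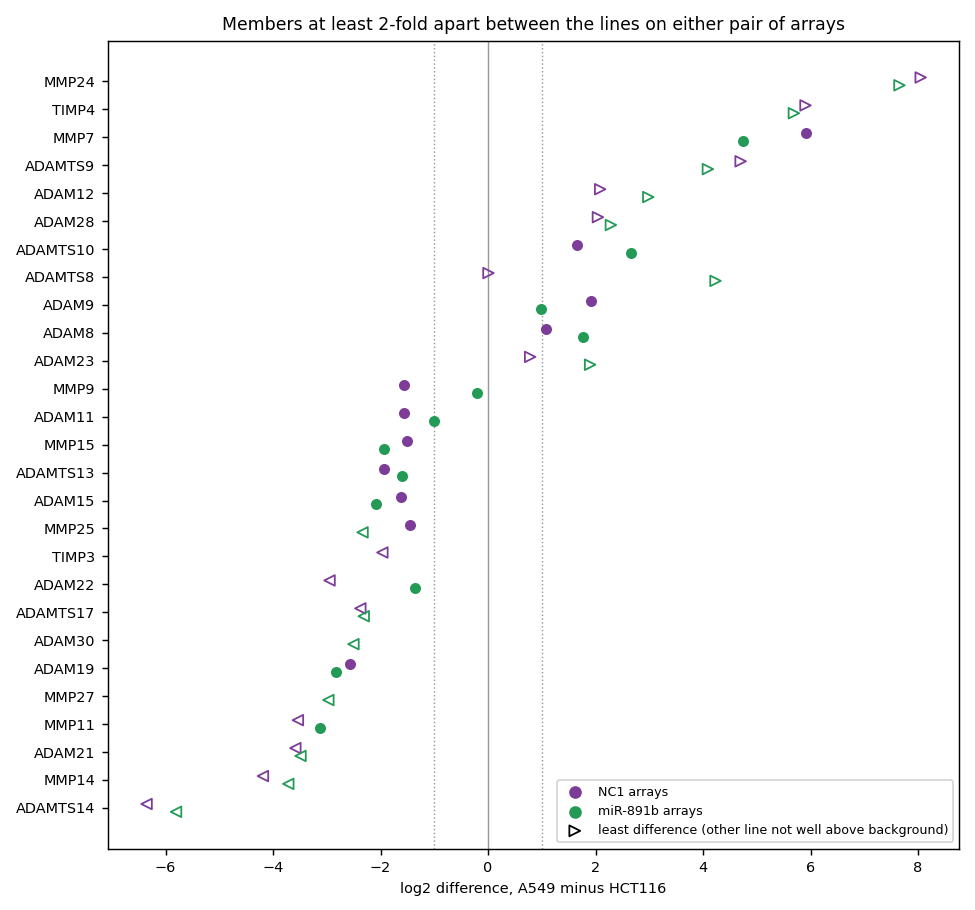
Log2 difference between the lines (A549 minus HCT116) for the genes at least 2-fold apart on the NC1 arrays (purple) or the miR-891b arrays (green); dots were measured in both lines, triangles are the least difference where the other line was not above background, and dotted lines mark 2-fold. MMP24, TIMP4, MMP7 and ADAMTS9 lie farthest to the right and ADAMTS14 and MMP14 farthest to the left.

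By size alone, 21 of the genes were measured in both lines with NC1, and A549 was lower in 7 of them and higher in 4 by this size. Over all 19217 genes measured in that comparison, 16.2% were lower and 11.1% higher. With miR-891b, 23 were measured, of which 7 were lower and 3 higher, against 20.7% and 11.4% of 18576 genes. The lower genes with NC1 were ADAM11, ADAM15, ADAM19, ADAMTS13, MMP9, MMP15 and MMP25, and the higher ones ADAM8, ADAM9, ADAMTS10 and MMP7. With miR-891b, MMP11 and ADAM22 stood in the lower group in place of MMP9 and MMP25, and ADAM9, at 0.98, fell short of 2-fold. MMP11 and ADAM22 entered because they were then measured in both lines. With NC1 they were already lower by bounds, at least 11.6-fold and 7.72-fold. MMP25 left because its A549 probe was then not above background, and by bound it was at least 5.04-fold lower. MMP9 was measured on both pairs of arrays and differed by -0.21 with miR-891b. The median difference was -0.41 with NC1 and 0.03 with miR-891b, against -0.10 and -0.20 over all genes. With each array's median as the scale, the split with miR-891b was 6 lower and 5 higher, and with normexp background correction and quantile normalization 4 lower and 3 higher.

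The limma model tested 35 of the 67 genes and passed 22 for the cell line, 12 lower and 10 higher in A549, against 31.9% of all 22712 genes tested. Genes that are on in only 1 line enter this model through that line and had to differ, so the share of members is no result about them. In the model of genes on all 4 arrays, 5 members were lower and 4 higher of 20, against 20.6% and 12.6% of 18063 genes (33.2% in either direction). ADAMTS8, on in A549 only, did not pass (limma, adjusted p = 0.0531). With normexp background correction and quantile normalization, the line calls of ADAM9, ADAM11, ADAM22, ADAM23, ADAM28, ADAMTS17 and MMP25 were lost, with limma adjusted p-values from 0.0587 for ADAMTS17 to 0.149 for ADAM23.

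MMP7 lies in a cluster of MMP genes on chromosome 11, of which 9 are among the genes described. Counted from probe to probe on hg19, MMP20 lies 54.1 kb from MMP7, MMP27 168.5 kb, MMP8 189.7 kb, MMP10 247.4 kb, MMP1 266.7 kb, MMP3 312.7 kb, MMP12 339.6 kb and MMP13 419.7 kb. MMP7 was the member on in both lines. MMP20, MMP8, MMP10, MMP3 and MMP13 were on no array, and MMP27, MMP1 and MMP12 on 1 array each.

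The promoters of this cluster are shown for the AP-1 motif, a binding sequence of FOS and JUN proteins that is known from MMP promoters. RefSeq promoters (GRCh38.p14, 250 bases before to 50 after the gene's start) were searched on both strands for TGANTCA, which no other searched motif overlaps. N stands for any base, so forms with any middle base were counted as the motif. It was found in 2707 of 35116 promoters (7.709%). Promoters were matched for 38 of the 67 genes, and 4 held it: MMP7, MMP10, MMP20 and ADAMTS12. In the cluster, 5 of the 9 genes had a promoter in the table and 3 of these held the motif, given here with the motif in capitals.
MMP7: aaacactcaaaTGAGTCAcctatttccac
MMP20: tgtttgagacaTGAATCAtccttgctcgg
MMP10: aaacacatgcaTGAATCAtactgttggtg
These stretches lie on the minus strand at chr11:102530797-102530825, chr11:102625427-102625455 and chr11:102780678-102780706 of GRCh38, with the first base of the motif 67, 112 and 67 bases before the start. The middle base of the match is G in MMP7 and A in MMP20 and MMP10, and binding was not measured. Of the 3, MMP7 was measured in both lines while MMP20 and MMP10 were on no array.

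**Figure D3:**
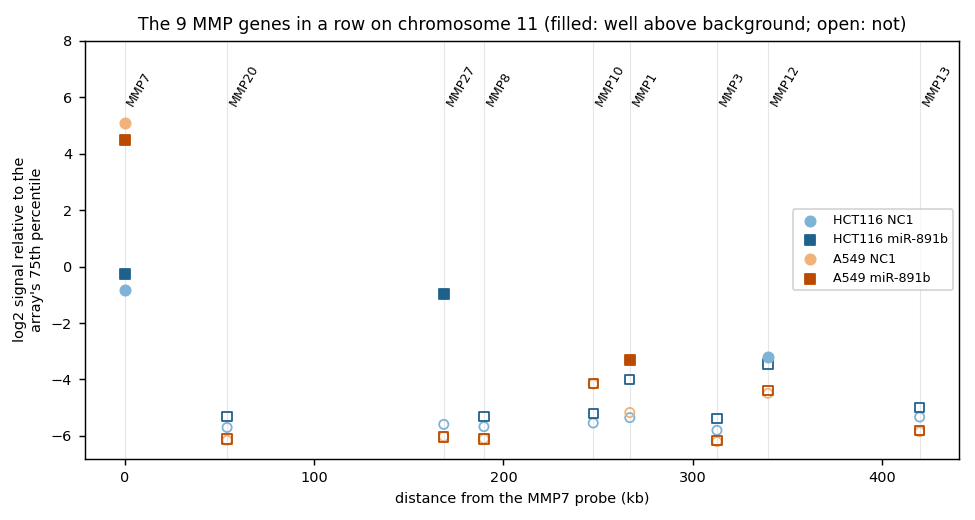
Log2 level (array's 75th percentile at 0) on the 4 arrays of the 9 MMP genes of the chromosome 11 cluster, placed by the distance of their probes from the MMP7 probe in kb; filled marks were well above background and open marks were not. MMP7 is filled on all arrays, at 5.08 and 4.50 in A549, and of its neighbours only MMP27, MMP1 and MMP12 have a filled mark, on 1 array each.

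Transfection of miR-891b into HCT116 left every measured gene of these families within 2-fold. Of 28 measured, none was at least 2-fold lower and none higher, against 0.843% lower and 1.16% higher of 19105 genes. The changes (miR-891b minus NC1) ran from -0.84 for ADAMTS10 to 0.57 for MMP7, with 21 below 0 and 7 above, and a median of -0.11 against -0.04 over all genes measured. ADAMTS10 went from 1.35 to 0.51. It was the one gene past 1.5-fold. With normexp ADAMTS10 changed by -0.53, under 1.5-fold.

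Larger differences came from genes above background on only 1 of the HCT116 arrays. TIMP3 went from -1.99 to -4.17, below background, and was at least 2.21-fold lower with miR-891b by its only probe (chr22:33258540-33258599, hg19, plus strand). MMP27 went from -5.59 to -0.96 and ADAM30, a gene of the testis, from -5.61 to -1.43. These are at least 6.0-fold and 4.34-fold higher, on a single array and by a single probe each. With normexp TIMP3 changed by -0.22, MMP27 by 0.70 and ADAM30 by 0.53, all within 2-fold. Around the MMP27 spot, 6.25% of nearby spots that were dim elsewhere were bright on this array, and around the ADAM30 spot 8.45%, with a median of 1.093% over the array. Probes bright on this array alone numbered 887 of 58201, and the part of stray signal in both values was not tested.

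**Figure D4:**
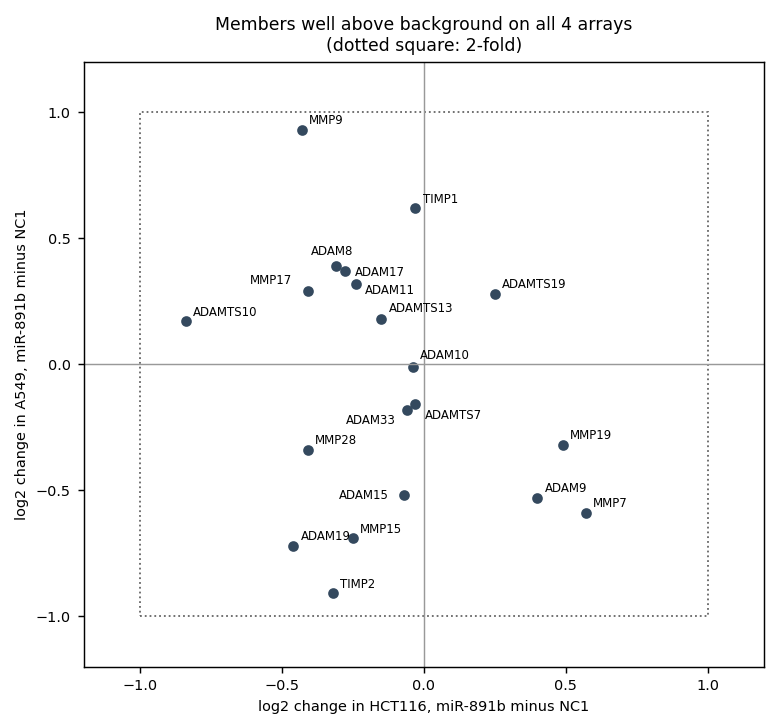
Change (miR-891b minus NC1, log2) in HCT116 against that in A549 for the 20 genes on at all 4 arrays; the dotted square marks 2-fold. No gene leaves the square, MMP9, TIMP2 and ADAMTS10 lie nearest its edges, and MMP7 and MMP9 lie in opposite corners.

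In A549, 3 of 27 measured genes were at least 2-fold higher with miR-891b and none was at least 2-fold lower, against 4.0% higher and 5.57% lower of 21335 genes. The 3 were ADAM12, ADAM23 and ADAMTS8, none of which was above background in HCT116. The changes ran from -0.91 for TIMP2 to 4.64 for ADAMTS8, with 12 below 0 and 15 above, and a median of 0.17 against -0.06 over all genes measured. With normexp ADAMTS8 alone was at least 2-fold higher, at 1.18, and ADAM12 changed by 0.87 and ADAM23 by 0.36.

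ADAM12 went from -1.37 to -0.15, a change of 1.21. The ADAM12 probe at chr10:127700996-127701055 changed from 0.26 to 1.46, by 1.2, and a further ADAM12 probe from -3.37 to -2.42, by 0.95. All 3 ADAM12 probes above background in A549 thus read higher with miR-891b. ADAM23 went from -2.76 to -1.24, a change of 1.53, and its other probe from -3.33 to -2.29, by 1.05. Of the 2 genes, both probes of ADAM23 and all of the measured probes of ADAM12 lay outside the areas of stray signal on this array.

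ADAMTS8, a proteoglycanase of lung and heart, went from -3.54 to 1.1 by its only probe. Of the nearby spots that were dim elsewhere, 23.33% were bright on the A549 miR-891b array (median 3.608%), so the spot lay in an area of stray signal, and without such probes 2 genes were at least 2-fold higher. ADAM22 went from below background to -2.25, at least 3.27-fold higher, and lay in such an area too (13.68%). ADAM32, a gene of the testis, went from below background to -2.04, at least 3.76-fold higher. Its second probe, from -3.44 to -2.22, also read higher. With normexp ADAM22 changed by 0.13 and ADAM32 by 0.28.

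MMP25, a membrane-type MMP of leukocytes, was with ADAM20 a member with a seed match in a probe, and the only one of the 2 above background. By that probe it read -1.25 and -1.60 in HCT116 and -2.71 and -3.96 in A549, the last not above background. It was lower with miR-891b by 0.35 in HCT116 and by at least 2.33-fold in A549, and with normexp MMP25 changed by -0.16 and -0.14. The other MMP25 probe, at chr16:3100486-3100545, read -1.79 and -2.41 in HCT116 and -3.93, not above background, and -3.68 in A549. In HCT116 both probes read lower with miR-891b, and in A549 they did not go the same way.

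**Figure D5:**
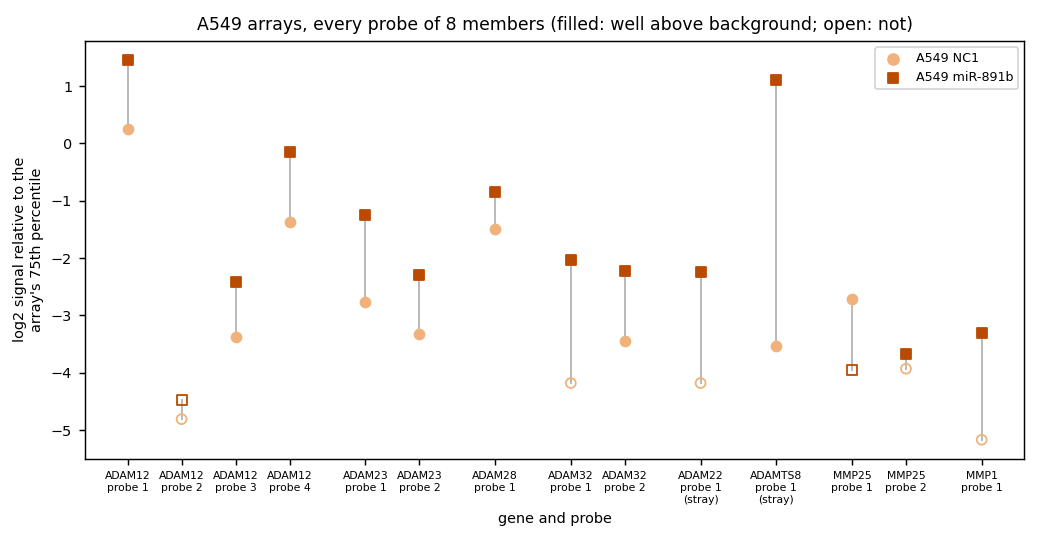
Log2 level (array's 75th percentile at 0) in A549 with NC1 (circles) and miR-891b (squares) of every probe of ADAM12, ADAM23, ADAM28, ADAM32, ADAM22, ADAMTS8, MMP25 and MMP1; filled marks were well above background, open marks were not, and probes in an area of stray signal are marked as stray. The filled probes of ADAM12 and ADAM23 read higher with miR-891b, and the MMP25 probes part.

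MMP1, the interstitial collagenase, is printed on 10 spots per array and so shows the spread near background. In A549 with NC1 none of its 10 spots was well above background, and the lowest, median and highest were -6.11, -4.97 and -4.42. With miR-891b 9 of 10 were, at -4.08, -3.25 and -2.72, and the spots of the A549 arrays did not overlap. The gene was at least 1.56-fold higher there, and with normexp MMP1 changed by 0.13. These spots are repeats on 1 array of each group, so they show the spread within an array only. In HCT116 none of 9 spots used was well above background on either array, with medians of -5.48 and -4.06. ADAMTS16 (at least 1.59-fold), MMP11 (1.35-fold) and ADAMTS6 (1.29-fold) also came above background in A549 only with miR-891b, and ADAM7 only with NC1.

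ADAM10, ADAM17, TIMP1 and TIMP2 stayed within 2-fold with miR-891b in both lines. ADAM10 changed by -0.04 in HCT116 and -0.01 in A549, and ADAM17 by -0.28 and 0.37. TIMP1 changed by -0.03 and 0.62, and TIMP2 by -0.32 and -0.91. ADAM19 was lower with miR-891b in both lines, by 0.46 and 0.72, though the mean over its probes changed by 0.01 in A549. ADAMTS14 was lower in HCT116 by 0.52. In the limma model the treatment term, which takes the lines as the only repeats of the transfection, passed no gene of the 35 tested and none of all 22712 (0.0%). The smallest adjusted p was 0.793, 1214 genes had an unadjusted p under 0.05, and of these families only ADAMTS14 did. Its A549 values, -5.35 and -6.25, were not above background, so only its HCT116 change was measured. With 1 of 35 against 1214 of 22712, this is no result about ADAMTS14.

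Genes that work with these proteases were counted from lists. The 9 partners of ADAM10 and ADAM17 are FRMD8 and the iRhom and tetraspanin proteins that carry these proteases to the cell surface. All 9 were measured and none passed 2-fold with miR-891b in either line. Over all genes, 0.843% were at least 2-fold lower and 1.16% higher in HCT116, and 5.57% and 4.0% in A549. Beside these shares, a count of none among so few genes is no result about them. Between the lines with NC1, TSPAN5 was lower in A549 by 2.64 and RHBDF1 higher by 1.04. These are 1 of 9 each, against 16.2% lower and 11.1% higher over all genes. Among the proteins that ADAM10 and ADAM17 shed, 1 of 17 measured was at least 2-fold higher in HCT116 with miR-891b (1.16% over all genes) and 2 of 16 measured in A549 (4.0%), and none of them lower. IL6R, the interleukin 6 receptor, was the gene called in both, going from -2.83 to -1.14 in HCT116 and from -3.24 to -0.04 in A549. BTC, betacellulin, was the other in A549, at 1.09. HBEGF and L1CAM came above background in A549 only with miR-891b, at least 2.34-fold and 2.73-fold higher. Between the lines with NC1, 16 of these shed proteins were measured. By 2-fold or more, A549 stood below HCT116 for 5 of them and above it for 3. The shares over all genes were 16.2% and 11.1%. Among the 5 were the EGF receptor ligands AREG and EREG, by 3.19 and 3.45. The 3 higher ones were SDC1, ALCAM and AXL, by 1.14, 1.40 and 1.45.

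Of 7 measured activators of MMP zymogens, none passed 2-fold with miR-891b in HCT116. Over all genes 0.843% were lower and 1.16% higher in HCT116, and 5.57% and 4.0% in A549. Beside these shares, a count of none in the short lists here is no result about them. In A549 the urokinase receptor PLAUR was lower, at 0.93 and -0.54, and the convertase PCSK6 higher, at -1.05 and 0.25. Of the other inhibitors and inducers, LCN2, which binds MMP9, was lower with miR-891b in A549, from 1.45 to -1.44, and TFPI2 was on in A549 only, at 5.11 and 4.40. VCAN, the proteoglycan versican, was the one measured ADAMTS substrate past 2-fold in HCT116, from 1.69 to 3.28, and none of those measured was in A549. By bounds, BCAN (brevican) was at least 2.46-fold lower in HCT116 with miR-891b and FBN1 (fibrillin) at least 3.54-fold higher in A549. Among the 12 measured transcription factors known from MMP promoters none passed 2-fold in HCT116. Of 13 in A549, FOS was lower, from 0.69 to -0.51. Of relatives outside the naming rule, ADAMTSL1 came above background only with miR-891b in each line, at least 2.29-fold higher in HCT116 and 2.55-fold in A549. Among those measured, PAPLN went from -0.56 to 1.49 in A549 with miR-891b, and PAPPA stood 6.35 higher in A549 than in HCT116 with NC1.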

How the data were processed

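Total RNA (100 ng) of 4 groups, grouped by sample titles, was labelled with Cy3 and hybridised to Agilent 1-colour arrays, with 1 array per group. Per the file headers the authors quantified scans with Feature Extraction 11.5.1.1, which subtracts background, and probes are placed on hg19; the deposited intensity values are linear and not scaled between arrays. The authors' deposited log2 values match log2 processed signal minus each array's 75th percentile to a median of 0.0069 or less and serve as an alternative; how they were made is not stated, and their column medians were -3.80, -3.60, -3.71 and -3.68. Control and outlier-marked spots were left out, log2 signal was averaged per probe, and the 75th percentile over gene probes was subtracted. limma 3.58.1 (lmFit, eBayes; R 4.3.3) was fitted on 4 arrays with 1 residual degree of freedom, for genes well above background on at least 2 arrays, and tested on simulated data; nothing in the labels says the arrays are separate cultures beyond the groups, so p-values measure only the spread between these arrays. Other values came from Python 3.11.15, numpy 2.4.6 and pandas 2.3.3.

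Members and gene lists were chosen with earlier results of these data known. Given with values were genes on all arrays past 2-fold with miR-891b or 4-fold between lines, all TIMPs, ADAM10, ADAM17, and genes with a bound of 2-fold or more; MMP1, MMP9, MMP12, MMP15, MMP17, ADAM8, ADAM9, ADAM15, ADAMTS7, ADAMTS10, ADAMTS13 and the genes named from lists were chosen after their values were seen. Alternatives were normexp (offset 50), quantile and median scaling, the authors' values, the mean over probes, other filters, probes in stray areas left out, and 1.5-fold and 3-fold.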

Additional observations from a re-analysis of the deposited data

Results flagged for a closer look

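In 3 genes well above background on all 4 arrays the change with miR-891b went one way in HCT116 and the other in A549, with a gap of 2-fold or more between the lines. MMP7 changed by 0.57 in HCT116 and -0.59 in A549, a gap (A549 minus HCT116) of -1.15. MMP9 changed by -0.43 and 0.93, a gap of 1.37. ADAMTS10 changed by -0.84 and 0.17, a gap of 1.01. With normexp the gaps were -0.65, 0.66 and 0.82, all under 2-fold, and with quantile normalization that of MMP7 was -0.92. The opposite signs held under both. With 1 array in each group these differences were not tested.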

How the results depend on the processing

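No count reversed or changed under the authors' values, quantile normalization or the mean over probes by more than 1.5 times. With no filter on dim probes, members at least 2-fold lower and higher numbered 3 and 6 in HCT116, 4 and 11 in A549, 18 and 12 between lines with NC1, and 22 and 13 with miR-891b. With normexp they were 1 higher in A549, 4 lower and 2 higher between lines with NC1, and 4 lower with miR-891b. Called at 1.5-fold, 1 was lower in HCT116, 4 lower and 6 higher in A549, and 5 higher between lines with miR-891b. Called at 3-fold, 1 was higher in A549 and 3 lower between lines with NC1. With median scaling 5 were higher between lines with miR-891b. With genes on all 4 arrays, limma passed 5 lower and 4 higher for the line. The causes were not tested beyond the number of genes each filter leaves. Line calls were lost for 7 members with normexp and for ADAM8 without probes in stray areas. ADAMTS8 passed with the mean over probes and with no filter. It has 1 probe, so its values were the same there. It was on in A549 only and its A549 miR-891b spot lay in a stray area, so these calls are no result about it. The treatment term passed no member in any alternative. The additive limma model compares miR-891b with NC1 within each line. No other paired analysis was possible because the labels give no replicate numbers and each group has 1 array, and no array could be left out. Signal over background limits the dim genes: the lowest marked level was -3.55, -3.14, -3.96 and -3.93.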

Other observations

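All TIMP genes but TIMP2 lie inside introns of the synapsin genes, TIMP1 in SYN1, TIMP3 in SYN3 and TIMP4 in SYN2. These hosts were read after the TIMP values had been seen. SYN2 was on in HCT116 at 1.11 and 0.53 and read -3.11 and -5.09 in A549, the last not above background, while TIMP4 was on in A549 only. SYN1 was well above background only in A549 with NC1, at -3.32, and SYN3 on no array, while TIMP1 was on everywhere.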
